A study of Mus musculus with 12 samples.

Results

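Transcription regulators that mark brown fat and the somite, 8 in number, were followed through all 12 libraries of the series: Myf5, Pax3, Pax7, Ebf2, Zic1, Lhx8, Prdm16 and Tbx15. They were taken by name as known lineage factors, with earlier results of these data known, and are 8 of the 38924 genes counted. All mice were of strain C57BL/6 and carried ROSAmTmG, a reporter whose membrane tdTomato is replaced by membrane GFP once Cre recombinase has acted in a cell or in its ancestor. The recombinase was driven by Myf5 (Myf5-Cre) or by Ucp1 (Ucp1-iCre). From each line, GFP+ and GFP- mammary myoepithelial cells (Lin-, CD24+, CD29hi) were sorted at lactation day 10, and GFP+ brown adipocytes were sorted from virgin females at 8 weeks of age. Each of the 6 groups held 2 libraries. Groups are named by how they were sorted, and markers of other cell types were also counted in them, as given below. GFP therefore records past recombinase activity and says nothing of whether Myf5 or Ucp1 was transcribed when the cells were sorted. The labels do not say whether the 2 libraries of a group came from separate animals or pools, so the p-values cover the spread between these libraries, which may be technical.

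Classical brown adipocytes are known to descend largely from somite cells of the dermomyotome that pass through a Myf5-positive stage, which they share with skeletal muscle. Pax3 and Pax7 are paired-box factors of the dermomyotome and, later, of muscle stem cells, and Myf5 is a basic helix-loop-helix factor that commits cells to muscle. Ebf2 and Prdm16 are regulators that select and maintain the brown adipocyte program, Zic1 and Lhx8 are genes used to tell classical brown from beige fat, and Tbx15 is a T-box factor of mesenchyme, adipose tissue and muscle.

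Library totals ran from 11027738 to 32956480 counts, and 10560 to 19794 genes had a count. The Ucp1 GFP+ myoepithelial libraries stood apart: they held the fewest genes with a count (10909 and 10560), and 1506 of the 8808 genes at 10 counts-per-million (CPM) or more in 1 of them were at 0 in the other (17.1%), against 0% to 0.983% in the other 5 groups. Mitochondrial genes took 0.648% to 2.45% of counts in mammary libraries and 12.6% to 36% in brown ones. CPM values below are scaled by TMM factors. Tests are the edgeR quasi-likelihood test over 16953 genes with Benjamini-Hochberg adjustment. Of the 8 members, Ebf2, Zic1, Lhx8, Prdm16 and Tbx15 passed the count filter, and Myf5, Pax3 and Pax7 did not and are given as counts. The spread of all members over the groups is shown in the plot of levels by library.

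**Figure D1:**
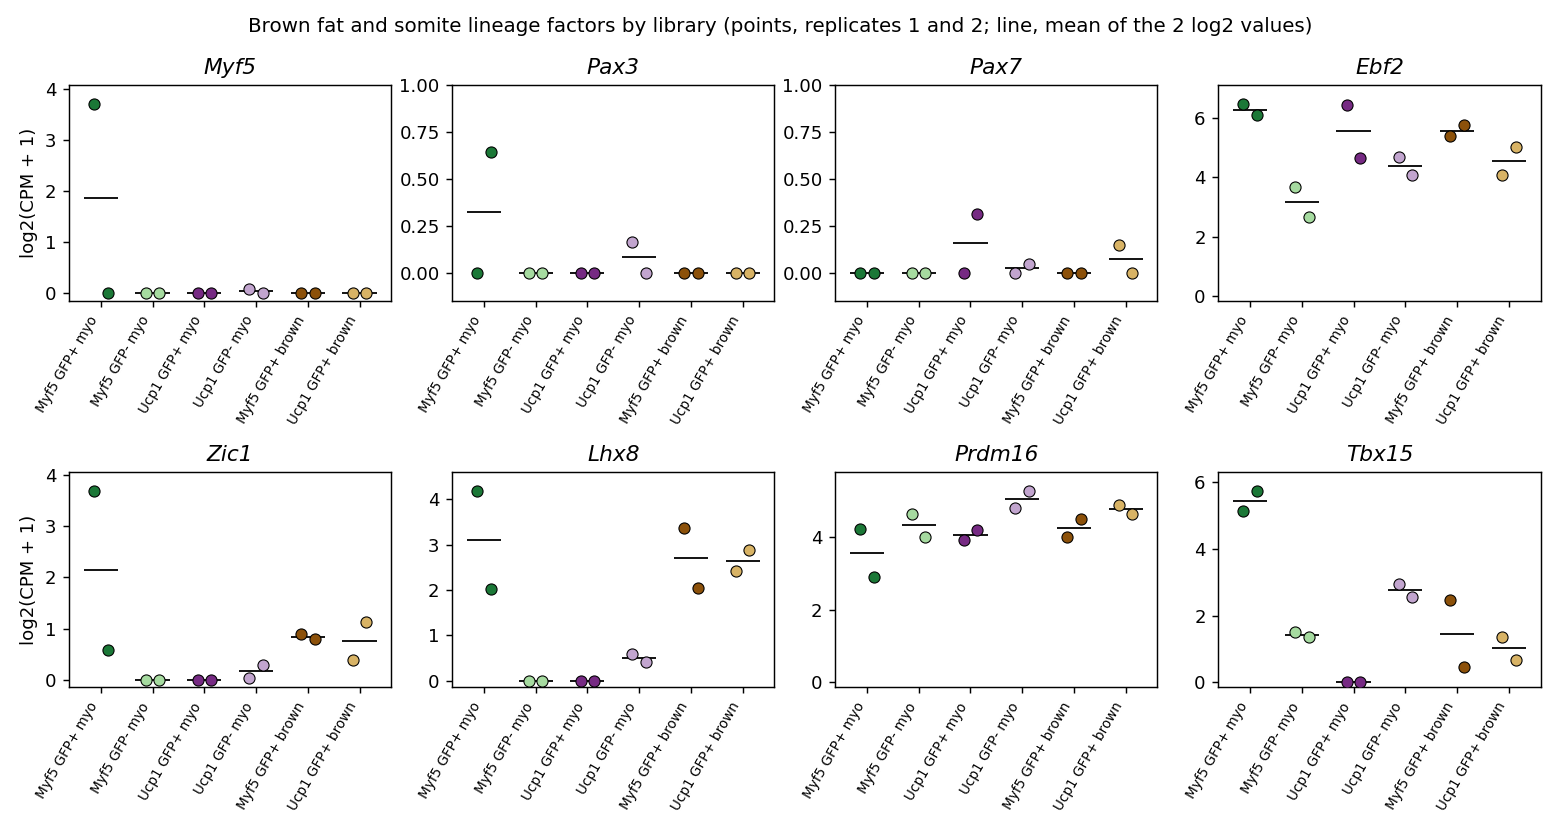
Level of each of the 8 members in each library, as log2(CPM + 1), with the 6 groups on the horizontal axis; points are the 2 libraries of a group and the line is the mean of their 2 log2 values. Ebf2 and Prdm16 were counted in every library, whereas Lhx8 and Zic1 were at 0 in all Myf5 GFP- and Ucp1 GFP+ myoepithelial libraries. Vertical scales differ between panels.

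Transcripts of Myf5, the factor whose promoter drove the recombinase, were found in 2 of 12 libraries. Myf5 (chr10:107482908-107486134, minus strand, mm10) had 193 counts (12.02 CPM) in the first Myf5 GFP+ myoepithelial library, 2 counts in the first Ucp1 GFP- library, and 0 in the other 10, including the second Myf5 GFP+ library and all 4 brown adipocyte libraries. A count of 0 allows up to 3 counts, or 0.0910 to 0.272 CPM on the raw totals, for counting error only. Within the Myf5 GFP+ group the level thus rests on 1 library. The other driver gene, Ucp1, the mitochondrial uncoupling protein of brown fat, had 12570 and 16440 CPM in Myf5 brown libraries and 950.1 and 3312 CPM in Ucp1 brown libraries. In all 4 GFP+ myoepithelial libraries Ucp1 was at 0, and in the 4 GFP- libraries it lay at 0.486 to 2.71 CPM.

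The paired-box members were close to absent. Pax3 (chr1:78101267-78197134, minus strand) had 16 counts in the second Myf5 GFP+ library, 4 in the first Ucp1 GFP- library and 0 elsewhere. Pax7 (chr4:139737062-139833528, minus strand) had 10 counts in the second Ucp1 GFP+ library, 1 in the second Ucp1 GFP- library, 1 in the first Ucp1 brown library and 0 elsewhere. Neither gene had counts in both libraries of any group. Each peaked in a different library from Myf5: the highest levels were 0.563 CPM for Pax3 and 0.243 CPM for Pax7. Among the 9 Pax genes 8 had a count somewhere, and only Pax6 reached 1 CPM, at 1.78 CPM in the first Ucp1 brown library. Of the other myogenic factors of the Myf5 family, Myod1 peaked at 3.28 CPM in the first Ucp1 GFP- library, Myf6 at 0.840 CPM in the first Ucp1 brown library and Myog at 0.317 CPM in the second Myf5 GFP+ library. None of these 3 had a count in the library that held the 193 Myf5 counts.

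Ebf2, a helix-loop-helix factor of the early B-cell factor family that opens chromatin at brown fat genes, was the most abundant member per exon length in 3 of 6 groups. Ebf2 (chr14:67233292-67430918, plus strand) was at 86.7 and 67.1 CPM in Myf5 GFP+ myoepithelial cells and at 11.58 and 5.34 CPM in their GFP- partners. Both GFP+ libraries lay above both GFP- libraries. The log2 difference was 3.18 (SE 0.78, adjusted p = 0.289), so the edgeR fit did not call it. Leaving out 1 library, it ranged from 2.73 to 3.84. Among these fits it was called only without a Ucp1 GFP+ library, a group outside this comparison. In the Ucp1 line, GFP+ cells had 85.8 and 24.1 CPM and GFP- cells 24.4 and 16.02 CPM. These ranges overlapped, since the second GFP+ library lay at the level of the GFP- ones (log2 difference 1.44, SE 0.73, adjusted p = 0.22). Without that second library the difference was 2.07, and without the first GFP+ library it was 0.242. Brown adipocytes had 40.7 and 52.5 CPM in the Myf5 line and 15.8 and 31.6 CPM in the Ucp1 line, and both Ucp1 libraries lay below both Myf5 ones (log2 difference -0.98, SE 0.73, adjusted p = 0.667). Ebf2 was thus higher in mean level in GFP+ myoepithelial cells than in the brown adipocytes of the same line, by 0.72 (SE 0.72, adjusted p = 0.517) and 1.21 (SE 0.73, adjusted p = 0.239) on the log2 scale. Neither difference was called. Leaving out 1 library, the second ranged from 0.0217 to 1.85, the highest being without the second Ucp1 GFP+ library. GFP- cells of both lines had a lower mean than brown adipocytes (log2 difference -1.34, SE 0.52, adjusted p = 0.0847), with overlap between single libraries. The log2 difference ranged from -1.67 to -1.04 leaving out 1 library, and whether it was called depended on the library. Among the paralogs, Ebf1 ran from 76.1 to 596.2 CPM and peaked in the first Myf5 GFP+ library as Ebf2 did, whereas Ebf3 stayed between 13.8 and 43.4 CPM.

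Tbx15 showed the widest contrast between the labelled populations. Tbx15 (chr3:99240381-99354259, plus strand) was at 33.9 and 52.3 CPM in Myf5 GFP+ cells (544 and 1486 counts) and at 1.82 and 1.58 CPM in Myf5 GFP- cells. In Ucp1 GFP+ cells both libraries had 0 counts, against 6.73 and 4.92 CPM in Ucp1 GFP- cells. Brown adipocytes had 4.52 and 0.367 CPM in the Myf5 line and 1.58 and 0.595 CPM in the Ucp1 line. The Myf5 GFP+ libraries were above all 10 others, and the Ucp1 GFP+ libraries were below all 10 others. Against GFP- cells, the Myf5 GFP+ level was higher by 4.66 on the log2 scale (SE 1.32, adjusted p = 0.327), which edgeR did not call. The Ucp1 GFP+ level fell at least 132.9-fold (adjusted p = 0.00737), the bound being 3 counts in the pooled empty group. Between the labelled populations, Tbx15 was at least 982.4-fold lower in Ucp1 GFP+ cells (adjusted p = 0.00307). Against brown adipocytes it was at least 24.7-fold lower in Ucp1 GFP+ cells (adjusted p = 0.0129). In Myf5 GFP+ cells it was 4.15 higher than in brown adipocytes on the log2 scale (SE 1.29, adjusted p = 0.0554, not called). Leaving out 1 library, this difference ranged from 3.25 to 6.86, and whether it was called depended on the library.

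The 0 counts of Tbx15 in the Ucp1 GFP+ libraries were shared by many genes of like level. Of 1856 genes within 1.5 times the Tbx15 mean in Ucp1 GFP- cells, 626 (33.7%) were also at 0 in both Ucp1 GFP+ libraries, against 2 (0.108%) at 0 in both Myf5 GFP- libraries. Of 1329 genes within 1.5 times its level in Ucp1 brown adipocytes, 752 (56.6%) were at 0 in both Ucp1 GFP+ libraries. The part of the low number of genes detected in these libraries in the Tbx15 result was not tested. In bulk samples, fewer cells of a type and less RNA per cell cannot be told apart.

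Lhx8 and Zic1, the classical brown fat markers among the members, were counted mainly in brown adipocytes and Myf5 GFP+ cells. Lhx8, a LIM-homeodomain factor (chr3:154306294-154330659, minus strand), was at 9.28 and 3.12 CPM in Myf5 brown libraries, 4.31 and 6.38 CPM in Ucp1 brown libraries, and 17.3 and 3.06 CPM in Myf5 GFP+ cells. It was at 0 in both Myf5 GFP- and both Ucp1 GFP+ libraries and at 0.511 and 0.336 CPM in Ucp1 GFP- cells. The 6 libraries of brown adipocytes and Myf5 GFP+ cells thus all lay above the other 6. Lhx8 was lower in GFP- myoepithelial cells of both lines than in brown adipocytes of both lines (log2 difference -6.87, SE 1.18, adjusted p = 0.00603). In Ucp1 GFP+ cells it was at least 121.8-fold lower than in Ucp1 brown adipocytes (adjusted p = 0.00887), and of 1830 genes within 1.5 times its brown level 577 (31.5%) were likewise at 0 in both libraries. The Myf5 GFP+ and brown levels overlapped (log2 difference 0.71, SE 1.22, adjusted p = 0.728), and without the first Myf5 GFP+ library the sign turned to -0.983 (adjusted p = 0.692).

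Within the mammary gland, Lhx8 was at least 159.9-fold higher in Myf5 GFP+ than in Myf5 GFP- cells, with an adjusted p of 0.251. Leaving out 1 library, it was called only without a Ucp1 GFP+ library, a group outside this comparison. In the Ucp1 line it was at least 9.66-fold lower in GFP+ than in GFP- cells (adjusted p = 0.0466), a call on the edge: the adjusted p ran from 0.0501 to 0.0569 with RLE scaling, with no count filter and without mitochondrial and milk genes. Leaving out any library outside the Myf5 GFP+ group also ended that call, with adjusted p from 0.0513 to 0.139. Of 1210 genes within 1.5 times the Lhx8 level in Ucp1 GFP- cells, 772 (63.8%) were at 0 in both Ucp1 GFP+ libraries. Between the labelled populations the gap was at least 231.5-fold (adjusted p = 0.00827). Both bounds against the Myf5 GFP+ cells lean on the first of their libraries: without it the level was at least 48.2-fold above Myf5 GFP- cells and at least 69.8-fold above Ucp1 GFP+ cells (adjusted p = 0.623 and 0.0142).

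Zic1, a zinc-finger factor of dorsal somite and neural tissue (chr9:91358058-91365810, minus strand), had 192 counts (11.96 CPM) in the first Myf5 GFP+ library and 14 counts (0.493 CPM) in the second. Brown adipocytes held 3 to 14 counts per library (0.315 to 1.19 CPM), Ucp1 GFP- cells 1 and 7 counts, and the Myf5 GFP- and Ucp1 GFP+ libraries 0. The brown range enclosed the second Myf5 GFP+ library. Zic1 was at least 141.9-fold lower in Ucp1 GFP+ than in Myf5 GFP+ cells (adjusted p = 0.0332). Without the first Myf5 GFP+ library the bound was 11.2-fold and the adjusted p 0.095. Leaving out any other library but the second Myf5 GFP+ library and the 2 Myf5 GFP- libraries also ended the call, with adjusted p from 0.0504 to 0.0653. At the Zic1 level of Ucp1 brown adipocytes, 800 of 1333 genes (60%) were at 0 in both Ucp1 GFP+ libraries, and at its level in Ucp1 GFP- cells 340 of 502 (67.7%) were. Zic1 was lower without overlap in GFP- cells than in brown adipocytes (log2 difference -4.86, SE 1.51, adjusted p = 0.0506), at the edge of the threshold. Leaving out 1 library, the difference ranged from -5.74 to -4.26, and whether it was called depended on the library. Exons of Zic1 overlap those of Zic4 on the opposite strand, and the strand setting is not known here, so reads in the overlap cannot be told apart. Zic4 had 0 counts in all Myf5 GFP+ libraries, 4 to 29 counts in brown libraries and 8 and 6 counts in Ucp1 GFP- cells. Of the 5 Zic genes, 3 had a count in some library.

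Myf5, Zic1 and Lhx8 all reached their highest level in the first Myf5 GFP+ library, as did Ebf2, for which no promoter was matched. The promoters of Myf5, Zic1 and Lhx8 are shown beside that of Prdm16, which had no such peak. Each is the 250 bases before the annotated start in RefSeq (GRCm38.p6), written 5′ to 3′ on the gene's strand at chr10:107486135-107486384 (Myf5), chr9:91365769-91366018 (Zic1), chr3:154330561-154330810 (Lhx8) and chr4:154636874-154637123 (Prdm16). RefSeq entries were matched by symbol for 5 of the 8 members. Capitals mark matches on either strand to the E-box CANNTG, the GC box GGGCGG and the CCAAT box.
Myf5: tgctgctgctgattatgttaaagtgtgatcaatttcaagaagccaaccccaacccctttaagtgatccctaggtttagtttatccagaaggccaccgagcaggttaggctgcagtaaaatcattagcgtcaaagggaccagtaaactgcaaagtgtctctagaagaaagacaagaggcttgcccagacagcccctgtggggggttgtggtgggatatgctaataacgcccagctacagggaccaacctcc
Zic1: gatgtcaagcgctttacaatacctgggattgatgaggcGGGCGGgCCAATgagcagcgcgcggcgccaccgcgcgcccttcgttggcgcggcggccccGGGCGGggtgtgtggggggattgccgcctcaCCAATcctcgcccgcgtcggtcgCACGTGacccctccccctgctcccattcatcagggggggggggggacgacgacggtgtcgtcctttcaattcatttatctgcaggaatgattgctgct
Lhx8: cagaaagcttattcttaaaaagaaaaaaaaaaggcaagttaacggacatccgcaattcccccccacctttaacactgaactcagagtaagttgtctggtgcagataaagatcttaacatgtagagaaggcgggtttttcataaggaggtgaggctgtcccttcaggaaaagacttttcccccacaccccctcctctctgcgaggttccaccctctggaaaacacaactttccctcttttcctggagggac
Prdm16: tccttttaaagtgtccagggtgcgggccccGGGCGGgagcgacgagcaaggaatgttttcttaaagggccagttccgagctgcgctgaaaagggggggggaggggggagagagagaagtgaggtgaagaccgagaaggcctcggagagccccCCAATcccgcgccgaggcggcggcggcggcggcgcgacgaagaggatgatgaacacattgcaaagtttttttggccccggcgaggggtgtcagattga

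The promoters of Zic1 and Prdm16 were richer in GC and CpG than those of Myf5 and Lhx8. That of Zic1 had 66.0% GC and 27 CpG dinucleotides, more CpG than 91.4% of the 32851 promoters of this length, and that of Prdm16 had 62.4% and 22. Those of Myf5 and Lhx8 had 48.8% and 46.0% GC with 3 and 4 CpG. Zic1 had 1 E-box, starting 98 bases before the start, 2 GC boxes and 2 CCAAT boxes, and Prdm16 had 1 GC box and 1 CCAAT box. Myf5 and Lhx8 had no match to these letters. An E-box stood in 66.2% of all promoters of this length, a GC box in 32.7% and a CCAAT box in 33.8%. Searches on both strands for CCCNNGGG (the core of the Ebf family site, in 11.8% of promoters), TAATTA (a homeodomain core, in 4.84%), AGGTGTGA (a T-box site, in 1.12%) and TATAAA (in 12.4%) found no match in these 4 windows.

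Prdm16, a zinc-finger coregulator that holds cells in the brown fat program, varied least among the tested members, from 6.55 to 38.1 CPM. Prdm16 (chr4:154316125-154636873, minus strand) was at 17.9 and 6.55 CPM in Myf5 GFP+ cells, 24.1 and 15.3 CPM in Myf5 GFP- cells, 14.3 and 17.5 CPM in Ucp1 GFP+ cells and 27.1 and 38.1 CPM in Ucp1 GFP- cells. Brown adipocytes had 15.02 and 21.6 CPM in the Myf5 line and 28.8 and 24.2 CPM in the Ucp1 line. The highest group was the GFP- myoepithelial cells of the Ucp1 line, and the lowest library was 1 of the Myf5 GFP+ pair. Prdm16 was not called in any of the 8 comparisons. In the Ucp1 line both GFP+ libraries lay below both GFP- ones (log2 difference -1.03, SE 0.69, adjusted p = 0.362), where the median of all genes tested was also below 0, at -0.69. Between GFP- myoepithelial cells and brown adipocytes the difference was 0.20 (SE 0.48, adjusted p = 0.812), and its sign turned under another scaling (-0.0332).

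**Figure D2:**
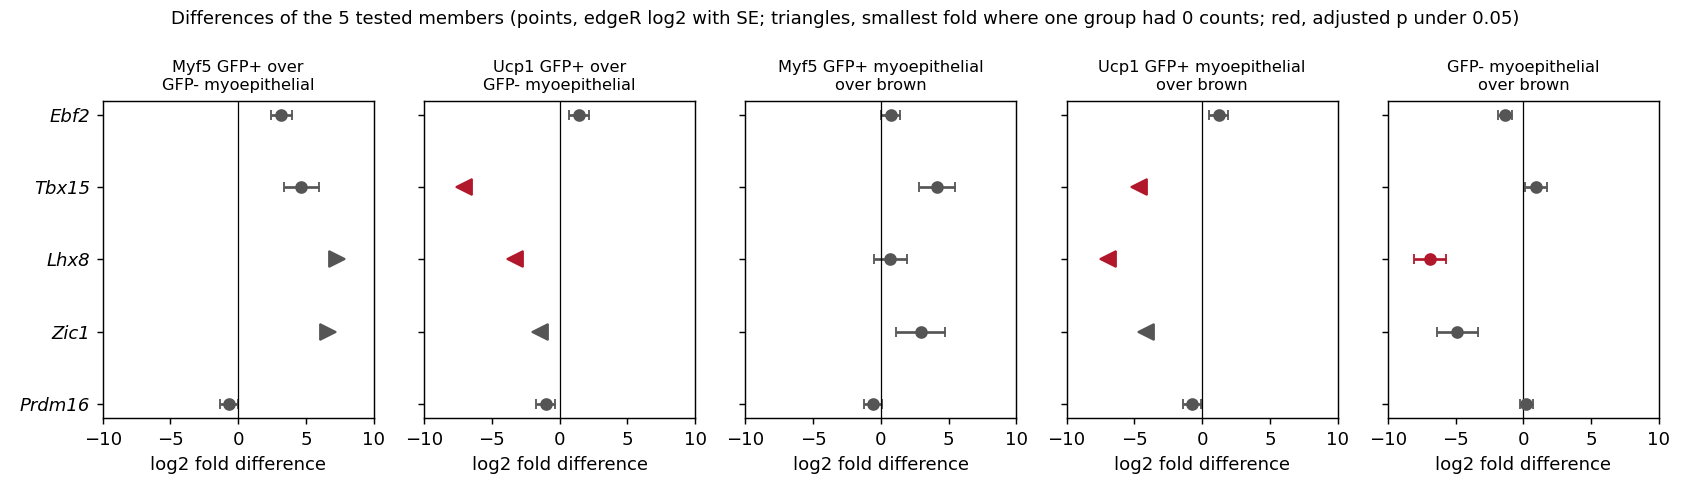
Log2 fold differences of the 5 tested members in 5 comparisons; points are edgeR estimates with the SE, triangles the smallest fold allowed where 1 group had 0 counts, and red marks an adjusted p under 0.05. Red marks stand for Tbx15 and Lhx8 in the 2 comparisons of Ucp1 GFP+ cells and for Lhx8 in GFP- cells against brown adipocytes; in both columns of Myf5 GFP+ cells all marks are grey.

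Counted over the members, no call was made by edgeR between Myf5 GFP+ and GFP- cells, where 0% of the 16953 genes were called. Of the 5 tested members 4 had an unadjusted p under 0.05 (as did 1573 genes). DESeq2 called 4 members, beside 4.27% of genes, and limma-voom 3, beside 3.34%. With both Ucp1 GFP+ libraries left out, edgeR called 2 (Ebf2 and Lhx8, adjusted p = 0.0355 and 0.0334), beside 1.4% of genes. Ebf2, Tbx15, Lhx8 and Zic1 were higher in both GFP+ libraries than in both GFP- ones, which held for 14.5% of all genes tested. Between Ucp1 GFP+ and GFP- cells 2 of the 5 fell (Tbx15 and Lhx8), where 14% of genes fell, and 4 were lower without overlap, beside 48.1% of genes. Ucp1 GFP+ cells against brown adipocytes gave Tbx15 and Lhx8 lower, beside 22.5% of genes called lower, and 4 members lower without overlap, beside 41.1%. Zic1 missed the threshold there (at least 17.2-fold lower, adjusted p = 0.0563), and was called by DESeq2 and limma-voom (3 members each, beside 37.9% and 36.4% of genes). Leaving out 1 library, whether Zic1 was called there depended on the library. GFP- cells against brown adipocytes gave Lhx8 alone, beside 12% of genes called lower, and Lhx8 and Zic1 lower without overlap, beside 18%. DESeq2 called 3 members there (34.8% of genes), limma-voom 2 (29.5%), and edgeR 3 without both Ucp1 GFP+ libraries (41.7%). Myf5 GFP+ cells against brown adipocytes gave no call by edgeR, beside 19.8% of genes; 1 member (Tbx15) had an unadjusted p under 0.05. It was called by DESeq2 (33.1% of genes), by limma-voom (26.5%) and by edgeR without both Ucp1 GFP+ libraries (37.5%), and Tbx15 and Ebf2 were higher without overlap, as were 33.1% of genes. The 2 sorts of brown adipocytes gave no call either, beside 1.32% of genes, with 0 members at an unadjusted p under 0.05 or called by DESeq2 or limma-voom; Ebf2 was lower without overlap in the Ucp1 line, as were 28.3% of genes, and Prdm16 higher, as were 31.3%. Comparisons within a line share the GFP+ libraries, so their values are not independent of each other.

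The effect of the GFP label differed between the lines for 3 of the 5 tested members, each higher in the Myf5 line, beside 10.7% of all genes called in that direction. The test of the difference between the label effects gave an adjusted p of 0.00461 for Tbx15, 0.00618 for Lhx8 and 0.0325 for Zic1. The Zic1 call was lost on leaving out any library but the second Myf5 GFP+ and both Ucp1 GFP+ libraries (0.0601 to 0.133). For Ebf2 the difference was 1.74 on the log2 scale (SE 1.02, adjusted p = 0.364), and it ranged from 1.11 to 2.94 leaving out 1 library. For Prdm16 it was 0.35 (SE 0.97, adjusted p = 0.971). The labelled populations compared directly gave the same 3 members lower in Ucp1 GFP+ cells, beside 15.2% of genes called lower and 29.9% lower without overlap. This comparison shares both GFP+ groups with the test of the difference.

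Levels per kilobase of exon place the members on a common scale. In Myf5 GFP+ cells, Tbx15 (mean 11.5 CPM per kb) and Ebf2 (11.1) were highest, followed by Lhx8 (4.01), Myf5 (2.88), Prdm16 (1.31), Zic1 (1.09) and Pax3 (0.0455). The order differed between the 2 libraries. Ebf2 was above Tbx15 in the first (12.51 against 9.04) and below it in the second (9.69 against 13.96). The places of Myf5 and Zic1 rest on the first library (5.77 and 2.1, against 0 and 0.0866 in the second). In Myf5 brown adipocytes the order was Ebf2 (6.72), Lhx8 (2.45), Prdm16 (1.97), Tbx15 (0.651) and Zic1 (0.139). In Ucp1 GFP+ cells only Ebf2 (7.93), Prdm16 (1.71) and Pax7 (0.021) were above 0. Neighbours in these orders were not tested against each other. By number, 6 of the 8 members had a count in each Myf5 GFP+ library, 2 and 3 in the Ucp1 GFP+ libraries, 3 in each Myf5 GFP- library, 7 and 6 in the Ucp1 GFP- libraries, and 5 or 6 in brown libraries.

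**Figure D3:**
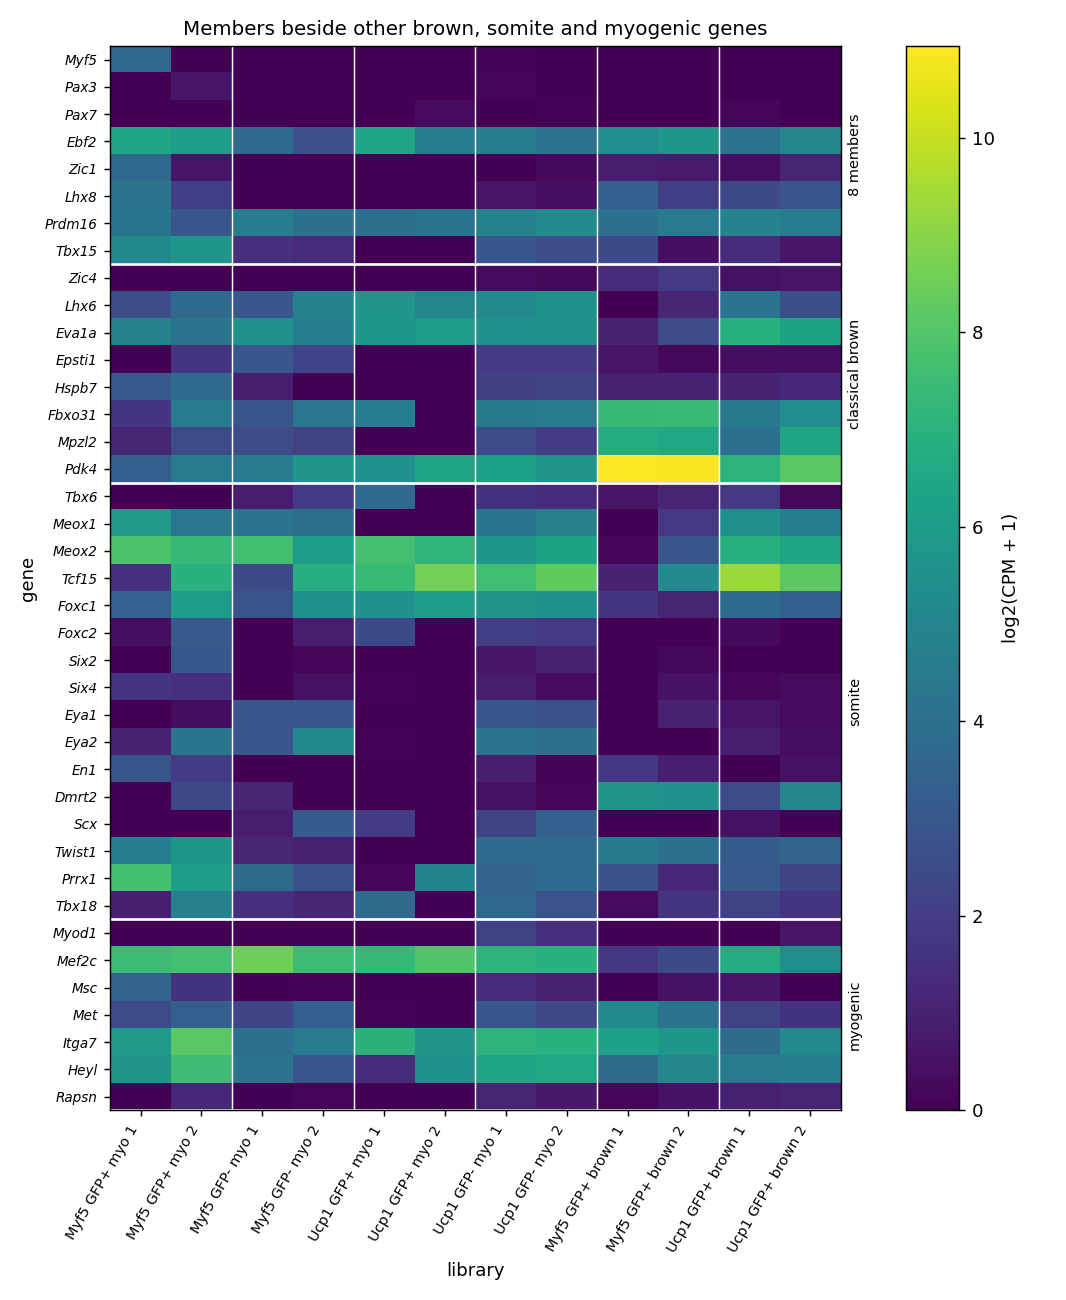
Levels as log2(CPM + 1), by colour, of the 8 members and of the classical brown, somite and myogenic list genes reported here that reach 1 CPM in a library, with genes as rows and the 12 libraries as columns grouped by cell type and line. Among somite factors, Meox1 and Twist1 are at 0 in both Ucp1 GFP+ myoepithelial libraries, as Tbx15, Lhx8 and Zic1 are. Others are not: Meox2 is at 210.1 and 143.6 CPM there and Tcf15 at 169.6 and 407.5 CPM.

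Other somite factors were followed as a list of 26 genes, of which 18 were tested. None was called between Myf5 GFP+ and GFP- cells by edgeR (6 at an unadjusted p under 0.05, beside 1573 of the 16953 genes, 3 by DESeq2, beside 4.27%, and 3 by limma-voom, beside 3.34%). Without overlap, 6 were higher and 3 lower, beside 14.5% and 20.2% of all genes, and the median log2 difference was 1.47, against -0.06 over all genes. Between Ucp1 GFP+ and GFP- cells, 4 of the 18 fell, beside 14% of all genes: Twist1, a mesenchymal helix-loop-helix factor, Meox1, a homeobox factor of the somite, and Eya1 and Eya2, phosphatase coactivators of transcription. Twist1 was at 12.3 and 13.1 CPM in Ucp1 GFP- cells and 0 in both GFP+ libraries, at least 290-fold lower (adjusted p = 0.00134). Meox1 was at 17.9 and 26.3 CPM in Ucp1 GFP- cells and 0 in both GFP+ libraries, at least 503.7-fold lower (adjusted p = 0.00987). Bounds of list genes at 0 in both Ucp1 GFP+ libraries, here and below, cover counting error only. In these libraries 17.1% of genes at 10 CPM or more in 1 were at 0 in the other. The test of the difference between lines called Twist1, Meox1 and En1, each higher in the Myf5 line (adjusted p = 0.00198, 0.0135 and 0.0271). In that direction 10.7% of all genes were called. The median of the list in the Ucp1 line was -1.31, beside -0.69 for all genes. Somite genes did not all fall with the Ucp1 label: Tcf15 was at 169.6 and 407.5 CPM in Ucp1 GFP+ cells and 190.5 and 308 CPM in GFP- cells, and Meox2 at 210.1 and 143.6 CPM against 53.5 and 80.2 CPM, neither called.

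Against brown adipocytes, Myf5 GFP+ cells were higher in 3 somite factors, Meox2, Eya2 and Foxc1, and lower in none, beside 10.9% of all genes called higher and 8.84% called lower. Meox2, a mesoderm homeobox factor, was at 230.7 and 160.9 CPM against 0.122 and 6.51 CPM (log2 difference 5.86, SE 1.31, adjusted p = 0.0154). Ucp1 GFP+ cells were lower in Twist1, Meox1 and Dmrt2, a dermomyotome factor, which was at 4.62 and 32.4 CPM in Ucp1 brown adipocytes and at 0 in both GFP+ libraries (at least 422-fold, adjusted p = 0.0373), beside 22.5% of all genes called lower. GFP- cells of both lines were higher than brown adipocytes in Eya2 and Foxc1 and lower in genes that include Dmrt2 and Twist1, beside 14.6% of all genes called higher and 12% called lower. The sign of the somite list thus differed from gene to gene in this comparison, with a median of 1.40 beside 0.35 for all genes.

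Of 9 further classical brown or preadipocyte markers, 8 were tested, and 3 fell in Ucp1 GFP+ against GFP- cells (Mpzl2, Hspb7 and Epsti1), beside 14% of all genes. Mpzl2, an adhesion protein gene used as a brown marker, was at 2.99 CPM on average in Myf5 GFP+ cells, 0 in Ucp1 GFP+ cells, and 98.8 and 51.8 CPM in Myf5 and Ucp1 brown adipocytes. Of 22 brown fat regulators, all tested, 2 (Ppargc1b and Irf4) fell with the Ucp1 label, beside 14% of all genes. With the Myf5 label none was called by edgeR (2 at an unadjusted p under 0.05, beside 1573 of the 16953 genes, 1 by DESeq2, beside 4.27%, and 1 by limma-voom, beside 3.34%). Ppargc1b, a coactivator of mitochondrial genes, averaged 0 CPM in Ucp1 GFP+ cells and 8.70 CPM in GFP- cells (at least 198.3-fold lower, adjusted p = 0.00947). Pparg, the adipocyte master regulator, averaged 201.2 CPM in Myf5 GFP+ cells, 522 CPM in Myf5 GFP- cells, and 277.4 and 267.2 CPM in Ucp1 GFP+ and GFP- cells, and was not called. Of 12 thermogenic effectors, 9 of 11 tested were lower in Myf5 GFP+ cells than in brown adipocytes, 8 in Ucp1 GFP+ cells and 11 in GFP- cells, beside 8.84%, 22.5% and 12% of all genes, and none was higher.

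Myogenic and satellite cell genes were followed as a list of 15, of which 8 were tested. In Myf5 GFP+ against GFP- cells, 3 were higher and 1 lower without overlap, beside 14.5% and 20.2% of all genes. None was called by edgeR (3 at an unadjusted p under 0.05, beside 1573 of the 16953 genes, 2 by DESeq2, beside 4.27%, and 1 by limma-voom, beside 3.34%). Msc, a helix-loop-helix factor of muscle precursors, was at 10.6 and 2.08 CPM in Myf5 GFP+ cells and 0 and 0.0405 CPM in Myf5 GFP- cells. Its label effect differed between the lines (adjusted p = 0.0246), as did that of Met, a receptor of migrating muscle precursors (adjusted p = 0.0149). Both effects were higher in the Myf5 line, a direction called for 10.7% of all genes. Met averaged 6.92 and 6.24 CPM in Myf5 GFP+ and GFP- cells and 0.0184 and 5.37 CPM in Ucp1 GFP+ and GFP- cells. Among 16 structural genes of skeletal muscle, 15 were tested and 5 fell with the Ucp1 label, beside 14% of all genes. Des, the intermediate filament gene desmin, averaged 122.3 CPM in Myf5 GFP+ cells, 14.9 CPM in Myf5 GFP- cells, 87.8 CPM in Ucp1 GFP- cells and 0 in Ucp1 GFP+ cells (at least 2002-fold lower than Ucp1 GFP-, adjusted p = 0.00117). That bound, too, covers counting error only.

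Genes that mark other cell types changed level alongside the members. Fibroblast and preadipocyte markers, 14 genes, summed to 23270 and 14020 CPM in Myf5 GFP+ cells, where all 14 had a count, and to 1999 and 1223 CPM in Myf5 GFP- cells. In Ucp1 GFP+ cells they summed to 1208 and 687.9 CPM with 4 and 3 of 14 at 0, Thy1 and Dpp4 in both libraries and Pdgfra in the first, and in Ucp1 GFP- cells to 4639 and 4164 CPM. Myf5 brown adipocytes were lowest, at 124.5 and 143.3 CPM, with Pdgfra at 0 in both. Of the 14, 13 were higher in both Myf5 GFP+ than in both GFP- libraries, as were 14.5% of all genes. None of the 14 was called there by edgeR (9 at an unadjusted p under 0.05, beside 1573 of the 16953 genes, 8 by DESeq2, beside 4.27%, and 7 by limma-voom, beside 3.34%). With the Ucp1 label 5 fell, beside 14% of all genes. Tbx15, Lhx8, Zic1 and the fibroblast markers thus ran the same way between groups of mammary cells, and the part of fibroblasts in the member levels was not tested. Lhx8 was at 3.12 to 9.28 CPM in the brown libraries, where the fibroblast sum was 124.5 to 1572 CPM.

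The 10 myoepithelial markers summed to 3352 and 5060 CPM in Myf5 GFP+ cells and 1554 and 3386 CPM in Ucp1 GFP+ cells, against 9725 to 18670 CPM in GFP- cells and 25.2 to 200.3 CPM in brown adipocytes. Krt14, a basal keratin, was at 3.99 and 54.4 CPM in Myf5 GFP+ cells and at 492.7 and 830.9 CPM in Myf5 GFP- cells. Endothelial markers, 8 genes, summed to 929 and 1258 CPM in Myf5 GFP+ cells, 3612 to 7218 CPM in the other mammary groups, 126.3 and 457 CPM in Myf5 brown adipocytes and 3717 and 1932 CPM in Ucp1 brown adipocytes. The 10 luminal and milk markers summed to 30990 and 13430 CPM in Myf5 GFP+ cells, 90680 and 48990 CPM in Myf5 GFP- cells, 17120 and 18480 CPM in Ucp1 GFP+ cells and 84130 and 93880 CPM in Ucp1 GFP- cells. They were lower in both GFP+ than in both GFP- libraries for 8 of 10 in the Myf5 line and 10 of 10 in the Ucp1 line, beside 20.2% and 48.1% of all genes. With the Ucp1 label 3 (Wap, Csn2 and Csn1s1) fell, beside 14% of all genes. Pericyte markers, 8 genes, summed to 2983 and 2733 CPM in Myf5 GFP+ cells and 717 and 504.2 CPM in Myf5 GFP- cells, with 7 of 8 higher without overlap, beside 14.5% of all genes. They summed to 1061 and 821.1 CPM in Ucp1 GFP+ cells and 1708 and 1712 CPM in Ucp1 GFP- cells, with 7 of 8 lower without overlap, beside 48.1%. None was called by edgeR in either line (4 and 1 at an unadjusted p under 0.05, 4 and 0 by DESeq2, 2 and 3 by limma-voom). Over all 16953 genes these counts were 1573 and 5244, 724 and 4152, and 567 and 5146. Pericyte markers thus ran the same way as Tbx15, Lhx8 and Zic1 in both lines. These sums are set out in the plot of marker lists, and their part in the member results was not tested.

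**Figure D4:**
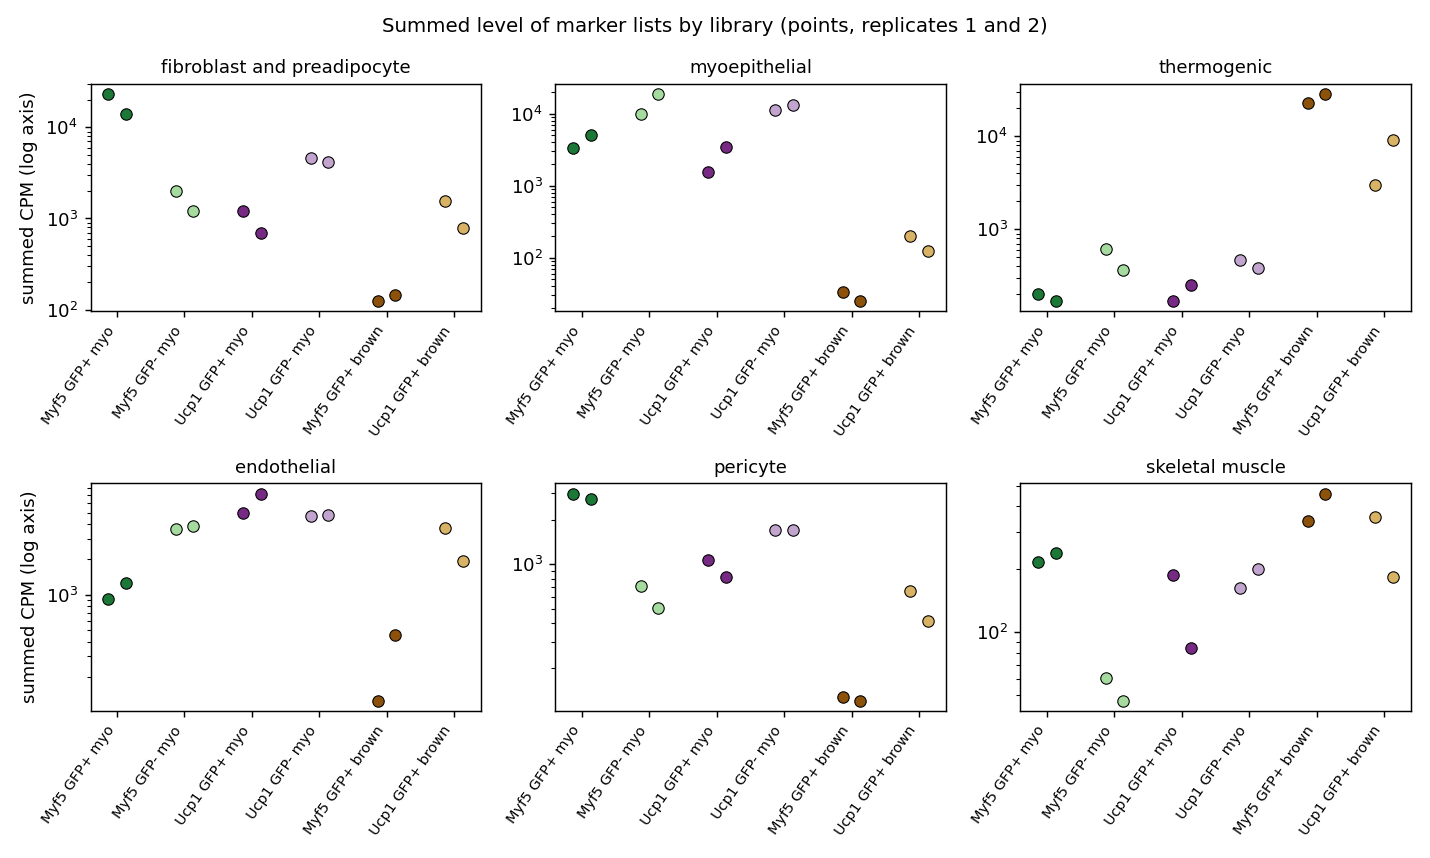
Summed CPM of 6 marker lists in each library on a log axis, with the 6 groups on the horizontal axis and points for the 2 libraries of a group. Fibroblast and preadipocyte markers are highest in the Myf5 GFP+ myoepithelial libraries (23270 and 14020 CPM) and lowest in Myf5 brown adipocytes, and thermogenic genes are high only in brown adipocytes. Vertical scales differ between panels.

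Likeness of pattern was measured by Pearson r of log2(CPM + 1) over the 12 libraries, which share groups and depth, so r is a description. Myf5 and Zic1 were most alike among the members (r = 0.921), followed by Zic1 and Lhx8 (r = 0.811), and Pax3 and Prdm16 were the most opposed (r = -0.671). The r of Myf5 and Zic1 rests mainly on the first Myf5 GFP+ library, where they were at 12.02 and 11.96 CPM. Elsewhere they reached at most 0.0601 and 1.19 CPM. Among 11566 genes, those nearest Myf5 included Tnfsf15 (r = 0.997) and Slco1c1 (r = 0.976), each set by the same library, where Myf5 had 193 counts. Nearest to Ebf2 were Parp3 (r = 0.924), Cped1 (r = 0.858) and Gramd3 (r = 0.823). Tbx15 was nearest to Ccn3, Dnm1 and Lsp1 (r = 0.963 each). Lhx8 was nearest to Sctr (r = 0.941), Snhg11 (r = 0.913) and Myl1 (r = 0.911), and Prdm16 to Vamp3 (r = 0.893), Med21 (r = 0.807) and Imp3 (r = 0.762).

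Counting could touch these values in few places. Myf5, Pax7 and Lhx8 share no 31-base stretch with another gene's transcripts, and Tbx15, Prdm16, Pax3 and Zic1 share 0.566% to 1.92% of theirs. Ebf2 shares 5.43%, mainly with Gm10860, whose exons overlap it on the opposite strand. Gm10860 had 0 or 1 count in mammary libraries and 25 to 80 counts in brown ones, so reads of the overlap cannot be told apart in brown adipocytes. B230104I21Rik, opposite Prdm16, had at most 8 counts in any library.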

How the data were processed

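RNA from sorted mouse cells (6 groups of 2 libraries) was isolated with an RNeasy Micro kit and amplified with SMART-Seq v4, per the labels' protocols. The authors deposited raw read counts per gene for each library; TopHat, HTSeq, DESeq2 and mm10 are named in the submitters' processing notes. No versions, annotation release or strand setting were stated: not given in the sources used here. Symbols and positions came from GENCODE (mm10), promoters from RefSeq (GRCm38.p6).

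All 12 libraries were fitted at once with edgeR 4.0.16 in R 4.3.3 (quasi-likelihood, TMM factors, filterByExpr with minimum count 10, Benjamini-Hochberg adjustment at 0.05 over 16953 genes), with groups from the labels and 8 comparisons. The alternatives were RLE factors, no filter, DESeq2 1.42.0, limma-voom (limma 3.58.1), a replicate block, leaving out mitochondrial and milk genes, and leaving out libraries. An empty group was bounded at 3 counts in its pooled size, for counting error only. The edgeR fit was tested on simulated counts in the comparison of Myf5 GFP+ and GFP- cells. It recovered 3% of 100 genes changed 4-fold and 46% of 100 genes changed 16-fold. A missing call in that comparison therefore does not show that a level was unchanged. Genes outside the 8 members were named by adjusted p within lists, by mean level where none was called, or as markers beside a result; paralogs were named by level. Some results are not reported here. The members and lists were chosen with earlier results of these data known.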

Additional observations from a re-analysis of the deposited data

Results flagged for a closer look

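The effect of the GFP label on 3 members differed between the Myf5 and Ucp1 lines in the test of the difference itself (edgeR, adjusted over all genes): Tbx15 with an adjusted p of 0.00461, Lhx8 with 0.00618 and Zic1 with 0.0325. Each was higher with the label in the Myf5 line, in 2 of 2 GFP+ libraries, and at 0 in both Ucp1 GFP+ libraries. The difference was also called in that direction for 10.7% of all genes tested. The Zic1 call was lost on leaving out any 1 of 9 of the 12 libraries (adjusted p from 0.0601 to 0.133).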

How the results depend on the processing

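Groups of 2 limit every call. Over the settings tried, 655 of the single-gene values kept direction and side of the threshold, 38 gained a call, 34 lost one and 13 changed sign. The calls of Tbx15 in the 4 comparisons with Ucp1 GFP+ cells held in every setting run, as did those of Lhx8 against brown adipocytes (Ucp1 GFP+ and GFP- cells), between the labelled groups and in the difference between lines. The cause of the other changes was not tested.

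Members called between Myf5 GFP+ and GFP- cells numbered 0, against 4 by DESeq2, 3 by limma-voom, 2 without both Ucp1 GFP+ libraries and 0 to 2 leaving out 1 library. For Ucp1 GFP+ against GFP- cells the 2 calls became 1 with RLE factors, no filter, the replicate block or without mitochondrial and milk genes, and 1 to 2 leaving out 1 library. The difference between the lines gave 3, the replicate block 2 and leave-one-out 2 to 4. For Myf5 GFP+ cells against brown adipocytes the 0 calls became 1 by DESeq2, by limma-voom and without both Ucp1 GFP+ libraries (leave-one-out 0 to 1), and for Ucp1 GFP+ cells 2 became 3 by DESeq2 and limma-voom (leave-one-out 2 to 3). For GFP- cells against brown adipocytes the 1 call became 2 with RLE factors, limma-voom or without mitochondrial and milk genes, and 3 by DESeq2 and without both Ucp1 GFP+ libraries (leave-one-out 1 to 3). Between the brown groups it stayed 0 to 0, and between the labelled groups 3 became 2 with the block (leave-one-out 2 to 3).

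Signs turned only for values not called (log2). Leaving out 1 library, Prdm16 ranged from -0.677 to 0.906 in the difference between lines, and Zic1 from -0.658 to 3.9 and Lhx8 from -0.983 to 1.7 in Myf5 GFP+ cells against brown adipocytes. Between the brown groups Zic1 ranged from -1.32 to 0.587, Lhx8 from -0.795 to 0.778 (0.118 with the block) and Tbx15 from -2.06 to 1.55. Between the labelled groups Ebf2 ranged from -1.68 to 0.155 and Prdm16 from -0.171 to 1.29. Prdm16 turned to -0.0332 (RLE) and -0.0336 (DESeq2) in GFP- cells against brown adipocytes. RLE in place of TMM factors moved the median of all genes from -0.69 to -0.51 in the Ucp1 line and from 0.35 to 0.12 in GFP- cells against brown adipocytes.

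The libraries share replicate numbers, whose meaning the labels do not give. Deviations of same-numbered libraries correlated at 0.472 for Myf5 GFP+ and GFP- cells and at 0.069 for those of the Ucp1 line. The replicate block took the calls from 2 to 1 for Ucp1 GFP+ against GFP- cells (Lhx8 adjusted p = 0.066), and from 3 to 2 both for the difference between lines and between the labelled groups (Zic1 adjusted p = 0.0645 and 0.0628).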
